A study of Mus musculus with 5 samples.

Results

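Id proteins and bone morphogenetic protein (BMP) signalling are represented here by 10 named genes: the Id genes Id1, Id2, Id3 and Id4, the ligands Bmp4 and Bmp7, the receptor Bmpr1a, the signal transducer Smad1 and the inhibitory Smads Smad6 and Smad7. They are 10 of 24347 gene symbols measured by RNA-seq. The study compared 2 libraries of Krt6a+ cells, numbered 2 and 3 and described as precancerous stem cells that express keratin 6a, with 3 libraries of WAP+ cells, numbered 1 to 3 and named for whey acidic protein, a milk protein of differentiated mammary epithelium. The source of all cells was precancerous lesions in the mammary glands of MMTV-Wnt-1 transgenic mice, on a mixed FVB, SJL and C57BL/6 background, so both groups carry Wnt-1 as a transgene, under the MMTV long terminal repeat, which is active in mammary epithelium. Each library came from a small pool of cells sorted by antibody staining for TVA, the receptor for an avian retrovirus. The labels give no age, and they do not say how TVA marked each population or whether the pools came from separate mice, so p-values measure only the spread between these libraries, which may be technical.

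BMPs are secreted ligands that bind pairs of type I and type II serine/threonine kinase receptors. The activated receptor phosphorylates Smad1, Smad5 and Smad9, which enter the nucleus with Smad4 and raise transcription of target genes, the Id genes among the best known. Id proteins have a helix-loop-helix but no DNA-binding region. They bind E proteins and keep them and their partners off DNA, and in the mammary gland Id genes are known for roles in progenitor cells and in the timing of differentiation.

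The Id promoters are shown because Id genes are direct targets of BMP-activated Smads. A promoter entry was found for 7 of the 10 genes. The stretches below are the 250 bases before the annotated start, from RefSeq on GRCm38.p6 (the mm10 build), at chr12:25096093-25096342 on the minus strand for Id2, chr4:136143572-136143821 on the plus strand for Id3 and chr13:48260866-48261115 on the plus strand for Id4. Capitals mark GGCGCC, the core of the GC-rich Smad1 element, which reads the same on both strands, and GTCTG or its reverse complement CAGAC, which hold the GTCT core bound by Smads.
Id2: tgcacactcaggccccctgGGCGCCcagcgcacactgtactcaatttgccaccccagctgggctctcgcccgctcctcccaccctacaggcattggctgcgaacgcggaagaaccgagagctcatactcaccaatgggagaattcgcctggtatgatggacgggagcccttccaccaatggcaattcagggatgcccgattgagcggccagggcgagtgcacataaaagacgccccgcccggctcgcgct
Id3: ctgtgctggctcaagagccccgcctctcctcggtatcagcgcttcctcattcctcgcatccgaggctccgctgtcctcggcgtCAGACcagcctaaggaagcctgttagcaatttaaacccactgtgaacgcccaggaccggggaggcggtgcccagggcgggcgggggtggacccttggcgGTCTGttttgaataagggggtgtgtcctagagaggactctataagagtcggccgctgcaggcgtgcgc
Id4: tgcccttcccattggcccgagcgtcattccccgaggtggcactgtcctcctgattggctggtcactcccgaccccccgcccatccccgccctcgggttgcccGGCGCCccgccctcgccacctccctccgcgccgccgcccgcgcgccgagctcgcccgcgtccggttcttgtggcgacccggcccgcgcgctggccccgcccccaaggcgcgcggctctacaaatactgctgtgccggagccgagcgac
The Id2 and Id4 stretches each held 1 GGCGCC, starting 231 and 148 bases before the start, and no GTCTG on either strand. The deposited Id4 transcript starts farther downstream, at chr13:48261427, than the RefSeq start used here, chr13:48261116. The Id3 stretch held no GGCGCC and 2 copies of GTCTG, 167 and 68 bases before the start. None of these stretches held both motifs, so the 2 motifs could not overlap. Among 32851 promoter stretches of this length, 9.59% held GGCGCC and 42.2% held GTCTG on either strand. Of the other members with an entry, Bmpr1a held 1 GGCGCC, and Bmp4, Smad1 and Smad6 held neither motif. GGCGCC is made of G and C only. The Id2, Id4 and Bmpr1a stretches were 62.8%, 75.6% and 78.8% G and C, and those without GGCGCC were 62.8% to 66.8%. The shares over all promoter stretches were not matched for this content. A match is a description of the letters, and no binding was measured.

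Libraries held 8112 to 8900 genes at FPKM 1 or more, where FPKM counts fragments per transcript length and per total of mapped fragments. Read totals were not given, and the widths of the deposited 95% bounds, read as counting error, correspond to about 4210000 to 6080000 fragments per library. The genes that name the populations lay on the side of their labels. Krt6a had FPKM 1380 and 1133 in the Krt6a+ libraries, against 168, 50.01 and 120 in the WAP+ libraries, and Wap was listed at 0 in both Krt6a+ libraries, against FPKM 50.1, 125.9 and 13.9 in the WAP+ libraries. Wnt1, the gene of the transgene, had FPKM 7.91 and 6.94 in the Krt6a+ libraries, against 10.3, 18.6 and 12.35 in the WAP+ libraries. Its log2 difference of -0.88 ± 0.56 (SE) did not pass (limma, adjusted p = 0.466). WAP+ library 1 stood apart in endothelial transcripts, which matters for this pathway because Id1, Id3 and Smad6 are abundant in endothelium. The 9 endothelial markers summed to FPKM 0.0902 and 7.63 in the Krt6a+ libraries, against 277, 9.18 and 0.288 in the WAP+ libraries. All 9 were above 0 in WAP+ library 1, but most of its sum was Cldn5 and Esam, at 123.7 and 111.8. Cdh5, Kdr, Tie1 and Tek were at 2.02, 1.34, 0.322 and 0.157 there. In WAP+ library 2 the sum was nearly all Egfl7 and Esam, at 5.30 and 3.64. Emcn was listed at 0 in the other 4 libraries, and Pecam1 was at FPKM 0.613 in Krt6a+ library 3, at 4.82 in WAP+ library 1 and listed at 0 elsewhere. The epithelial marker Epcam had FPKM 549 and 908 in the Krt6a+ libraries, against 1408, 1108 and 1493 in the WAP+ libraries, and 5 of 7 immune markers, Ptprc among them, were listed at 0 in every library. The 6 fibroblast markers summed to FPKM 57.5 and 210.1 in the Krt6a+ libraries, against 17.1, 8.60 and 84.2 in the WAP+ libraries, most of it Dcn, at 49.4 and 210.0 in the Krt6a+ libraries, against 16.3, 8.60 and 67.0 in the WAP+ libraries. The collagen gene Col3a1 was at 1.51 and 0 in the Krt6a+ libraries, against 0, 0 and 6.00 in the WAP+ libraries. The 6 pericyte and smooth muscle markers summed to FPKM 2.27 and 1.66 in the Krt6a+ libraries, against 27.0, 26.5 and 9.79 in the WAP+ libraries, most of the WAP+ sum being Acta2, a contractile gene that myoepithelium also expresses. Of the 4 adipocyte markers, 3 were listed at 0 in every library. The other, Fabp4, which capillary endothelium also expresses, was listed at 0 in both Krt6a+ libraries, against FPKM 2188, 65.8 and 20.3 in the WAP+ libraries. Of the 11 markers of the labelled populations, Krt6a and Krt5 were higher and Wap and Lalba lower in Krt6a+ libraries (limma, adjusted p under 0.05). Of the other markers, many were too low to be tested. Those tested were 3 of 9 endothelial, 4 of 6 fibroblast, 2 of 6 pericyte and smooth muscle, 0 of 7 immune and 1 of 4 adipocyte markers. No marker among these passed, Acta2 coming closest (limma, adjusted p = 0.0547). The part of these transcripts in the members' values was not tested. An exact 0 can be a failed estimate in these files, since the housekeeping gene Eno1 was listed at 0 in every library. Low values above 0 may be failed estimates too. Gapdh, another housekeeping gene, was at FPKM 0 and 1.66 in the Krt6a+ libraries, against 0, 1.48 and 0 in the WAP+ libraries.

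No member passed the test. By limma with Benjamini-Hochberg adjustment over 9682 genes, 0 of the 8 members tested were higher and 0 lower in Krt6a+ libraries at an adjusted p under 0.05, where 0.258% of all tested genes were higher and 0.434% lower. At an unadjusted p under 0.05 there were also 0 of the 8, against 17.1% of all genes. All 8 fitted differences, Krt6a+ minus WAP+, were positive, with a median log2 difference of 0.74, where the median over all tested genes was -0.01 and 49.8% were positive. With 1 library left out in turn the median of the members ran from 0.30 without WAP+ library 2 to 1.16 without Krt6a+ library 2. Adjusted p-values ran from 0.303 to 0.954. The scaled values of the groups did not overlap for 2 of the 8, Id4 and Bmpr1a, both higher in Krt6a+, where 34.8% of all tested genes had groups that did not overlap, 17.4% with Krt6a+ higher and 17.4% with Krt6a+ lower. Bmp4 and Bmp7 did not reach FPKM 1 in at least 2 libraries and were not tested. In pooled cells, fewer cells of a type and less RNA per cell cannot be told apart.

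**Figure D1:**
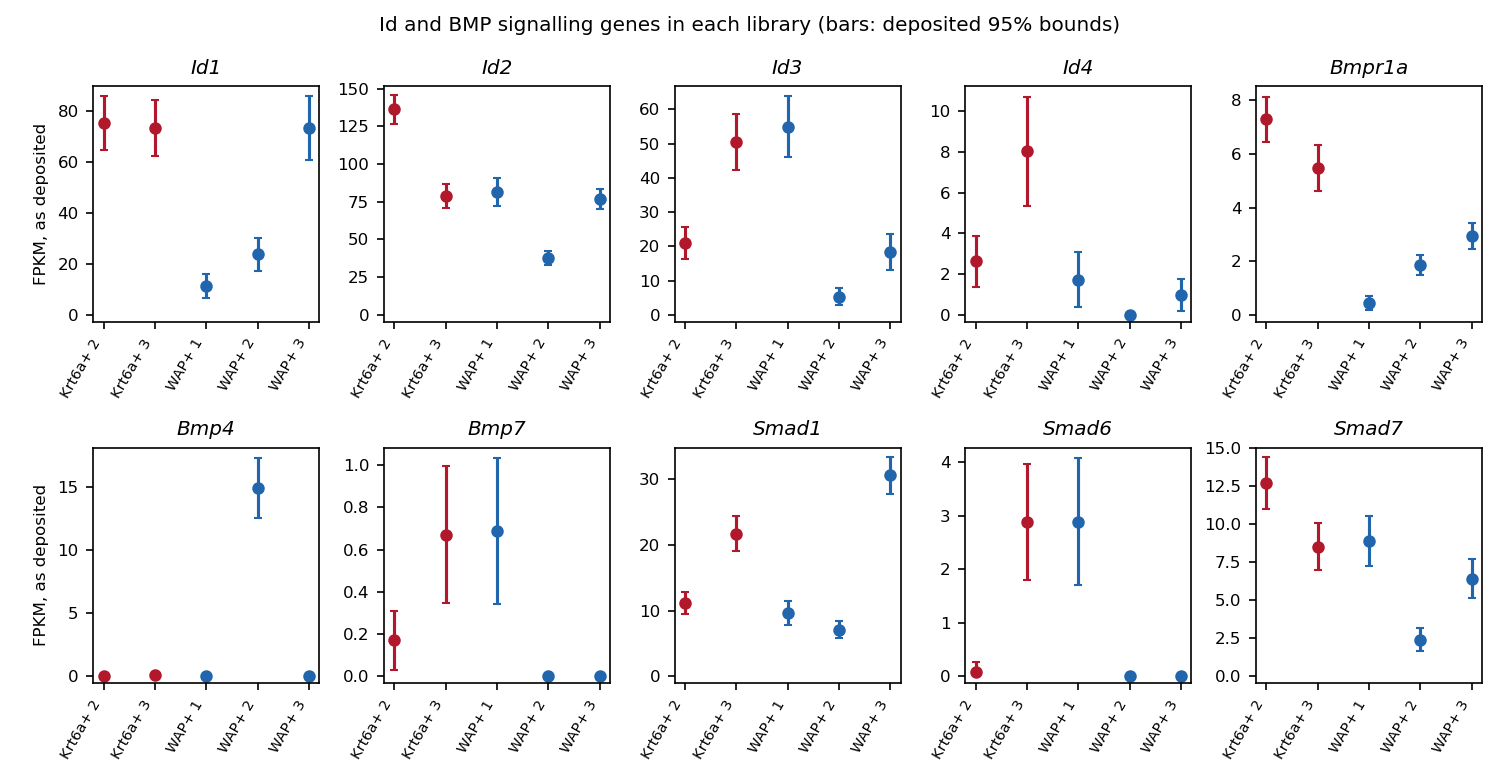
FPKM of each of the 10 genes (vertical axis, as deposited) in each library (horizontal axis), Krt6a+ in red and WAP+ in blue, with the deposited 95% bounds as bars. As plotted, the red points of Id4 and Bmpr1a all lie above the blue ones. Those of Id1 do so only narrowly, 73.38 being the lowest red and 73.32 the highest blue, and the groups overlap once scaled. Bmp4 rises above 0.0886 only in WAP+ library 2.

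Id2 was the most abundant Id gene in every library. The transcript NM_010496 lies at chr12:25093799-25096092. It had FPKM 136 and 78.8 in the Krt6a+ libraries, against 81.6, 37.5 and 76.9 in the WAP+ libraries. Krt6a+ library 2 was the highest and WAP+ library 2 the lowest, and the remaining libraries lay close together, so the groups overlapped. About 786 and 380 fragments lie behind the Krt6a+ values, against 321, 268 and 518 behind the WAP+ values. Of the genes at FPKM 1 or more, 85.0% lay below Id2 in WAP+ library 2, and a larger share did in each other library. Scaled means were 105 ± 49.0 (SD, n = 2) for Krt6a+, against 67.0 ± 23.7 (SD, n = 3) for WAP+. The log2 difference of 0.62 ± 0.49 (SE) did not pass (limma, adjusted p = 0.561), and its 95% interval ran from -0.51 to 1.75. It was 0.13 without Krt6a+ library 2, 1.12 without Krt6a+ library 3 and 0.28 without WAP+ library 2 (limma, adjusted p = 0.924, 0.332 and 0.866).

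Id1, the Id gene most often used as a readout of BMP activity, varied widely within the WAP+ group. NM_010495 lies at chr2:152736251-152737410. It had FPKM 75.3 and 73.4 in the Krt6a+ libraries, against 11.4, 23.8 and 73.3 in the WAP+ libraries. The Krt6a+ libraries agreed within their deposited bounds, 64.7 to 85.8 and 62.5 to 84.3, while WAP+ library 3, with bounds of 60.8 to 85.8, matched them and the other WAP+ libraries lay lower. Once libraries were scaled, WAP+ library 3 was the highest of all at 83.9, against 76.8 and 65.1 in the Krt6a+ libraries, so the groups overlapped. The log2 difference was 1.29 ± 0.78 (SE; limma, adjusted p = 0.447), with a 95% interval from -0.52 to 3.09. Without WAP+ library 1, the lowest, the log2 difference was 0.56 (limma, adjusted p = 0.745), and without WAP+ library 3 it was 2.03 (limma, adjusted p = 0.213).

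Id3, which often shares targets and sites of expression with Id1, was ordered differently. NM_008321 lies at chr4:136143822-136145392. It had FPKM 20.9 and 50.4 in the Krt6a+ libraries, against 54.9, 5.29 and 18.3 in the WAP+ libraries. The highest and the lowest library were both WAP+, and the highest was the library with the endothelial transcripts. Its deposited bounds, 46.0 to 63.8, overlapped those of Krt6a+ library 3, 42.3 to 58.5. The endothelial markers summed to FPKM 277 in WAP+ library 1 and to 7.63 in Krt6a+ library 3. WAP+ library 1 was thus low for Id1 and high for Id3, at a ratio of Id1 to Id3 of 0.207, against 1.46 to 4.49 in the other 4 libraries. The log2 difference of Id3 was 0.72 ± 0.82 (SE; limma, adjusted p = 0.706; 95% interval -1.17 to 2.60). It was 1.37 without WAP+ library 1 and -0.07 without WAP+ library 2, and neither passed (limma, adjusted p = 0.447 and 0.978). The part of endothelial transcripts in the Id3 values was not tested.

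Id4, an Id protein known in the mouse mammary gland from basal epithelium, was the least abundant Id gene. NM_031166 lies at chr13:48261427-48264036. It had FPKM 2.63 and 8.02 in the Krt6a+ libraries, against 1.71, 0 and 0.979 in the WAP+ libraries. Both Krt6a+ libraries were above every WAP+ library, but the bounds of Krt6a+ library 2, 1.39 to 3.88, overlapped those of WAP+ library 1, 0.365 to 3.06. The counts behind these values were low, about 17.9 and 36.1 fragments for Krt6a+, against 6.5 each in WAP+ libraries 1 and 3. Scaled means were 4.90 ± 3.13 (SD, n = 2) for Krt6a+, against 0.875 ± 0.781 (SD, n = 3) for WAP+. The log2 difference of 1.65 ± 0.73 (SE) did not pass (limma, unadjusted p = 0.0545, adjusted p = 0.303), with a 95% interval from -0.04 to 3.34. It was 1.07 without Krt6a+ library 3, the highest (limma, adjusted p = 0.569), and 0.72 with a pseudocount of 5 (adjusted p = 0.277).

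Added together, the 4 Id genes had FPKM 235 and 211 in the Krt6a+ libraries, against 149.5, 66.6 and 169.5 in the WAP+ libraries. On the scaled values WAP+ library 3, at 194, lay above Krt6a+ library 3, at 187, so the sums overlapped. The makeup of the sum varied within both groups. Id1 made up 32.0% and 34.8% of it in the Krt6a+ libraries, against 7.6%, 35.7% and 43.3% in the WAP+ libraries. Id3 made up 8.9% and 23.9% in the Krt6a+ libraries, against 36.7%, 7.9% and 10.8% in the WAP+ libraries. Id2 exceeded Id1 in each library, but their deposited bounds overlapped in Krt6a+ library 3 and WAP+ library 3.

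**Figure D2:**
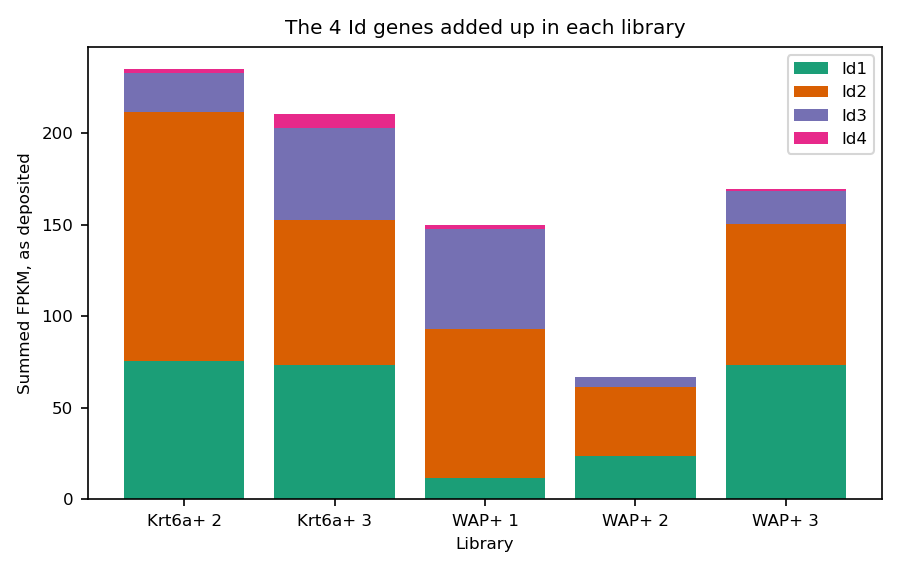
Stacked bars give the FPKM of Id1 to Id4 as deposited (vertical axis) in each library (horizontal axis), Krt6a+ on the left. The sum is lowest in WAP+ library 2, at 66.6, and Id3 takes its largest share, 36.7%, in WAP+ library 1.

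The genes whose profile over the 5 libraries lay nearest to each Id gene were found by the root mean square distance between log2 values, each gene centred on its own mean. Nearest to Id1 were Fbxo9, Ank and Ensa, at distances of 0.30, 0.33 and 0.33. Ensa, for example, had FPKM 31.1 and 29.3 in the Krt6a+ libraries, against 8.22, 13.1 and 31.8 in the WAP+ libraries. Nearest to Id2 were Clpx, Gucd1 and Sec61a1 (0.08, 0.093 and 0.11), nearest to Id3 were Evi5l, Lrrc41 and Zfp954 (0.12, 0.16 and 0.17), and nearest to Id4 were Emb, Cdkn1a and Epb4.1l5 (0.13, 0.15 and 0.16). Other Id genes lay farther off than these, the closest pair being Id3 and Id4 at 0.668 and the most distant Id1 and Id3 at 1.59. With 5 libraries and 9682 genes, these distances are descriptive.

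Of the ligands, Bmp4 was detected above trace level in 1 library. NM_007554 lies at chr14:46383520-46390599. It was at FPKM 0 and 0.0886 in the Krt6a+ libraries, against 0, 14.9 and 0 in the WAP+ libraries. The value in WAP+ library 2 rests on about 162 fragments, with bounds of 12.6 to 17.3, and that in Krt6a+ library 3 on less than 1. The library with Bmp4 was the one with the lowest Id2, Id3, Smad1 and Smad7 and with Id4 listed at 0. Bmp7 (NM_007557, chr2:172868012-172940321) stayed under FPKM 1 throughout, at 0.171 and 0.671 in the Krt6a+ libraries, against 0.688, 0 and 0 in the WAP+ libraries, or about 6.0 and 17.0 fragments against 16.0, 0 and 0.

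Bmpr1a encodes a type I receptor that binds BMP2 and BMP4. NM_009758 lies at chr14:34411068-34502546. It had FPKM 7.30 and 5.47 in the Krt6a+ libraries, against 0.436, 1.87 and 2.94 in the WAP+ libraries. Both Krt6a+ libraries lay above every WAP+ library, and no deposited bounds of one group reached those of the other, 4.61 being the lowest in Krt6a+ and 3.44 the highest in WAP+ libraries. These bounds cover counting error only. Scaled means were 6.15 ± 1.84 (SD, n = 2) for Krt6a+, against 1.93 ± 1.496 (SD, n = 3) for WAP+, and the log2 difference of 1.41 ± 0.74 (SE) did not pass (limma, adjusted p = 0.379; 95% interval -0.30 to 3.12). It was 0.92 without WAP+ library 1, the lowest (limma, adjusted p = 0.604), and 0.70 with a pseudocount of 5 (adjusted p = 0.356).

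Smad1 carries the signal from the receptor to the nucleus. NM_008539 lies at chr8:79338398-79399468. It had FPKM 11.2 and 21.7 in the Krt6a+ libraries, against 9.63, 7.11 and 30.6 in the WAP+ libraries. WAP+ library 3 was the highest and the other WAP+ libraries the lowest, so the Krt6a+ libraries lay between them. Scaled means were 15.3 ± 5.54 (SD, n = 2) for Krt6a+, against 17.1 ± 15.5 (SD, n = 3) for WAP+, lower in Krt6a+ although the difference of mean log2 values was positive. The log2 difference of 0.14 ± 0.72 (SE) did not pass (limma, adjusted p = 0.954), with a 95% interval from -1.53 to 1.80. Its sign changed when Krt6a+ library 3, WAP+ library 1 or WAP+ library 2 was left out, with log2 differences of -0.21, -0.19 and -0.25.

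The inhibitory Smads are themselves induced by the pathway and dampen it. Smad6, which acts mainly on BMP signals (NM_008542, chr9:63953076-64022059), had FPKM 0.0886 and 2.89 in the Krt6a+ libraries, against 2.89, 0 and 0 in the WAP+ libraries. It was above FPKM 1 in 1 library of each group, on about 28.0 fragments in Krt6a+ library 3 and 23.7 in WAP+ library 1, and at 1.0 or 0 fragments elsewhere. The log2 difference was 0.37 ± 0.82 (SE; limma, adjusted p = 0.870). It was 1.23 without Krt6a+ library 2, and 0.058 and 0.061 without WAP+ library 2 or 3 (limma, adjusted p = 0.618, 0.988 and 0.985). Without WAP+ library 1 or Krt6a+ library 3, Smad6 no longer passed the filter on low values. The WAP+ library with Smad6 was the one with endothelial markers. It also held the endothelial receptor genes Acvrl1, at FPKM 2.65 and listed at 0 in the other 4 libraries, and Eng, at 1.45 and at most 0.306 elsewhere, both named after their values were seen. In Krt6a+ library 3 Smad6 was as high, and the endothelial markers summed to 7.63, of which Cldn5 was 6.76. Id1, also abundant in endothelium, was lowest in WAP+ library 1, at FPKM 11.4. The part of endothelial transcripts in Smad6 was not tested.

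Smad7, which inhibits both BMP and TGF-beta receptors, had FPKM 12.7 and 8.50 in the Krt6a+ libraries, against 8.86, 2.41 and 6.41 in the WAP+ libraries. Krt6a+ library 2 was the highest and WAP+ library 2 the lowest, and the groups overlapped between 8.50 and 8.86. Scaled means were 10.2 ± 3.81 (SD, n = 2) for Krt6a+, against 5.92 ± 2.84 (SD, n = 3) for WAP+ (limma, log2 difference 0.76 ± 0.66 SE, adjusted p = 0.602; 95% interval -0.76 to 2.28). The log2 difference was 0.32 without WAP+ library 2 and 0.41 without Krt6a+ library 2 (limma, adjusted p = 0.887 and 0.830). WAP+ library 2 was the lowest library, or tied for it, for 6 of the 8 tested members.

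**Figure D3:**
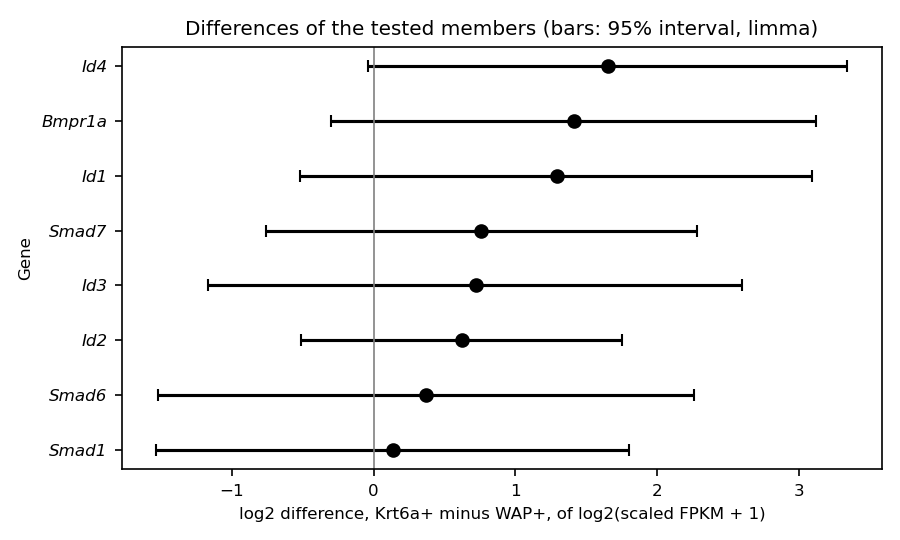
Points give the log2 difference, Krt6a+ minus WAP+ (horizontal axis), of the 8 tested members (vertical axis), and bars the 95% interval from limma. All points lie right of 0, from 0.14 for Smad1 to 1.65 for Id4, and every interval includes 0.

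Among 62 further genes of the pathway, 35 were tested, and 1 was higher and 0 lower in Krt6a+ libraries, where 0.692% of all tested genes were called. At an unadjusted p under 0.05 there were 8 of the 35 (limma), or 22.9%, beside 17.1% of all tested genes. Groups did not overlap for 14 of the 35, or 40.0%, 7 with Krt6a+ higher and 7 with Krt6a+ lower, beside 34.8% of all tested genes. Acvr2a and Dlx3, among the higher, reached FPKM 1 in the Krt6a+ libraries only, and Fstl1, among the lower, in the WAP+ libraries only. The median log2 difference was 0.24, with 22 positive and 13 negative. The gene that rose was Nbl1, which encodes DAN, a secreted protein that binds BMPs and keeps them from their receptors. NM_008675 lies at chr4:139082292-139092970. Nbl1 had FPKM 71.1 and 143 in the Krt6a+ libraries, against 14.4, 11.7 and 8.43 in the WAP+ libraries. Both Krt6a+ libraries were far above the WAP+ libraries, and scaled means were 99.7 ± 38.4 (SD, n = 2) for Krt6a+, against 11.7 ± 1.79 (SD, n = 3) for WAP+. The log2 difference was 2.94 ± 0.45 (SE; limma, adjusted p = 0.0448), 7.69-fold on the log2(FPKM + 1) scale. The call lies close to the threshold. It was lost without Krt6a+ library 3 (adjusted p = 0.0666) and without WAP+ library 1, 2 or 3 (0.135, 0.202 and 0.174), with log2 differences of 2.55 to 2.98, and with a replicate block (limma, adjusted p = 0.0967).

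The other ligands tested were Bmp2 and Bmp6. Bmp2, a ligand of Bmpr1a, had FPKM 13.0 and 7.79 in the Krt6a+ libraries, against 0.477, 0.853 and 2.40 in the WAP+ libraries. The log2 difference of 2.29 ± 0.72 (SE) did not pass (limma, adjusted p = 0.168). Bmp6 had FPKM 3.78 and 5.34 in the Krt6a+ libraries, against 0, 0 and 5.91 in the WAP+ libraries (limma, adjusted p = 0.503). The remaining 9 ligands listed did not pass the filter. Among receptors, 4 of 9 were tested and 0 passed (limma, 0 at an unadjusted p under 0.05), with Acvr2a, an activin and BMP type II receptor, at a log2 difference of 1.28 ± 0.61 (SE) and the co-receptor Rgmb at 1.05 ± 0.83 (SE). Acvr2a had FPKM 1.53 and 3.83 in the Krt6a+ libraries, against 0.845, 0.467 and 0 in the WAP+ libraries, so it could be tested only because it was high in Krt6a+. Smad4, the shared partner of the signalling Smads, had FPKM 27.1 and 20.95 in the Krt6a+ libraries, against 9.75, 11.1 and 7.53 in the WAP+ libraries (limma, log2 difference 1.15 ± 0.50 SE, adjusted p = 0.292), and Smad5, which acts in parallel with Smad1, had a log2 difference of 0.12 ± 0.65 (SE).

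Intracellular inhibitors of the pathway were all 6 tested and 0 passed, with 1 at an unadjusted p under 0.05 (limma), where 17.1% of all tested genes lay. That was Smurf1, a ubiquitin ligase that targets BMP Smads, at FPKM 28.3 and 14.5 in the Krt6a+ libraries, against 7.65, 7.09 and 4.84 in the WAP+ libraries (limma, log2 difference 1.42 ± 0.57 SE, adjusted p = 0.254). Skil, a Smad co-repressor, had a log2 difference of 1.30 ± 0.74 (SE). Of the other targets, Dlx3, a homeobox factor of epidermal differentiation, had FPKM 4.40 and 5.57 in the Krt6a+ libraries, against 0.159, 0 and 0.144 in the WAP+ libraries (limma, log2 difference 2.38 ± 0.57 SE, adjusted p = 0.0982). Gata3, a luminal transcription factor, had FPKM 9.60 and 9.30 in the Krt6a+ libraries, against 23.3, 24.4 and 21.3 in the WAP+ libraries (limma, log2 difference -1.31 ± 0.46 SE, adjusted p = 0.198). Neither passed.

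The E proteins that Id proteins bind were all 3 tested and 0 passed, with 1 at an unadjusted p under 0.05 (limma), a level that 17.1% of all tested genes reached. Tcf12 had FPKM 1.75 and 1.41 in the Krt6a+ libraries, against 11.3, 8.40 and 3.69 in the WAP+ libraries (limma, log2 difference -1.74 ± 0.66 SE, adjusted p = 0.232), and Tcf4 had a log2 difference of -0.34 ± 0.70 (SE). Of the TGF-beta arm, 7 of 8 genes were tested and 0 passed, with 2 at an unadjusted p under 0.05 (limma), again beside 17.1% of all tested genes. Those were the ligand Tgfb2, at FPKM 0.605 and 5.37 in the Krt6a+ libraries, against 8.68, 11 and 10.6 in the WAP+ libraries, and Smad3, the transducer of TGF-beta signals, at 2.08 and 7.39 in the Krt6a+ libraries, against 10.5, 13.7 and 13.6 in the WAP+ libraries. Their log2 differences were -1.90 ± 0.73 and -1.52 ± 0.63 (SE; limma, adjusted p = 0.233 and 0.269).

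**Figure D4:**
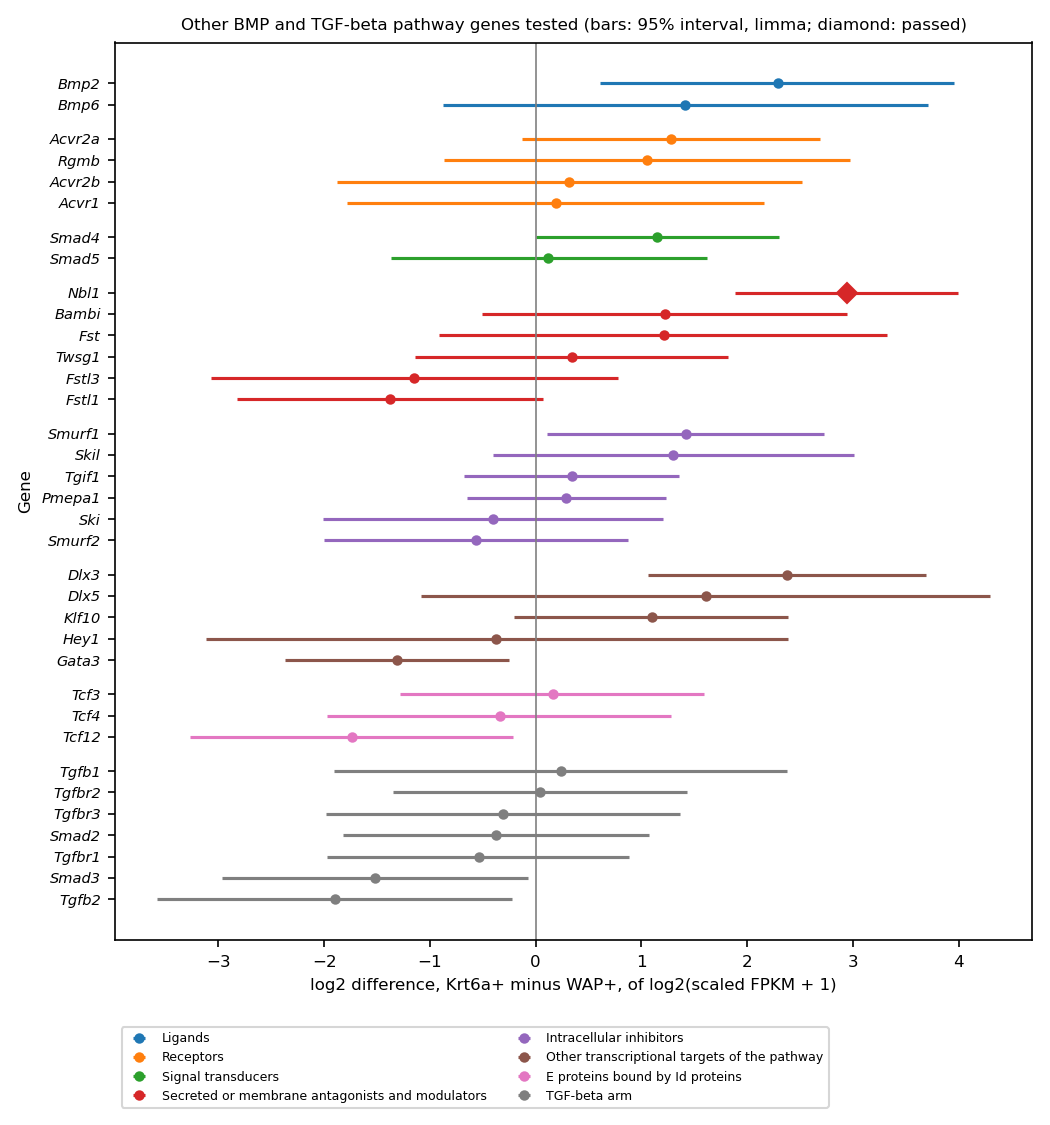
Points give the log2 difference, Krt6a+ minus WAP+ (horizontal axis), of the 35 tested genes of the wider pathway (vertical axis), grouped and coloured by role, and bars the 95% interval from limma. The diamond marks Nbl1, which passed at an adjusted p of 0.0448.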

How the data were processed

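RNA was measured in 2 Krt6a+ and 3 WAP+ pools after low-input cDNA amplification (SMART-Seq v4) and Nextera tagmentation, per the labels' protocols, a method that does not mark the strand and in which low transcripts can drop out. The tools were TopHat and Cufflinks and the build mm10, per the submitters' processing notes, with no versions given. The deposited FPKM, with 95% bounds, was scaled by the authors to transcript length and to the mapped fragments. A coverage signal per transcript was also deposited and was used only to describe depth. Fragments behind a value were estimated from the bounds and cover counting error only. Of values implying at most 200 fragments, 25.3% to 27.8% lay within 0.02 of a whole number, so no count model was run.

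FPKM was added up over the transcripts of a symbol, then scaled per library by the median ratio to the geometric mean of 5334 genes that reached FPKM 1 in every library (factors 0.980 and 1.13 for Krt6a+, and 1.14, 0.909 and 0.873 for WAP+). The 9682 genes at FPKM 1 or more in at least 2 libraries were tested on log2(scaled FPKM + 1), which understates changes of low genes, with limma 3.58.1 in R 4.3.3 (trended eBayes, two-sided, threshold 0.05 adjusted). Per-library values in the text are deposited FPKM, and means are of scaled FPKM. The procedure was tested on simulated data with changes larger than the members' differences, so the power to call the members was not measured. The members and lists were chosen with earlier results of these data known. Named genes were the members, pathway genes past the threshold or otherwise the 2 per role with the largest statistic, the label genes, and the 3 nearest profiles per Id gene. Coordinates are 1-based from the deposited loci in mm10, and for 6 members the start or end differed from RefSeq.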

Additional observations from a re-analysis of the deposited data

How the results depend on the processing

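All 8 tested members stayed short of the threshold under each of the 14 alternatives run, with a smallest adjusted p of 0.213, and 103 of 108 refitted values kept a positive sign (Id4 and Smad6 were not tested under every one). The exceptions were Smad1 and Id3. Smad1 was at -0.17 with a replicate block and at -0.25 to 0.77 with libraries left out in turn. Id3 ranged from -0.073 (without WAP+ library 2) to 1.365 (without WAP+ library 1) with libraries left out. The filters and the trend cannot change a member's difference, so those signs were fixed in advance. Each member has 1 transcript row, so taking the highest row changed only the scaling. A replicate block leaves WAP+ library 1 alone in its block, which nearly repeats leaving it out. With no filter, Bmp4 and Bmp7 were also fitted, outside the 108 values. Their log2 differences were -1.32 and 0.23 (limma, adjusted p = 0.677 and 0.746). The median of the members tested, 0.74, was 0.57 to 1.07 under the settings that kept all libraries, and 0.30 to 1.16 with 1 left out. The members in it varied with the filter: Bmp4 and Bmp7 entered with no filter, and Id4 and Smad6 dropped out at FPKM 5. Counts over all genes, 25 higher and 42 lower, did depend on the settings. With a pseudocount of 0.1 there were 6 higher and 20 lower, with no filter 2 and 3, with a filter at FPKM 5 there were 71 and 92, and with no mean-variance trend 7 and 9. A pseudocount of 5 gave 41 higher and quantile normalization 39 higher, and unscaled FPKM gave 27 lower. Leaving out 1 library gave 2 to 44 higher and 3 to 103 lower. The cause was not tested. The count of 1 pathway gene, Nbl1, became 0 with a pseudocount of 0.1, no filter, no scaling, no trend and a replicate block, and was 0 to 1 with a library left out. With a group reduced to 1 library, that library is assumed to vary like the others.

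The replicate block gave 15 higher and 19 lower genes. Same-numbered libraries correlated at 0.0495 and 0.000266 in their deviations from the group means, and the numbers were not taken as pairs. With 2 Krt6a+ libraries their deviations are exact opposites, so these values do not settle whether the libraries were paired. With 2 against 3 libraries of amplified cDNA, intervals of the members spanned 2.26 to 3.77 log2 units, and Id4, Bmp4, Bmp7 and Smad6 rest on few fragments in most libraries.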
